A study of Arabidopsis thaliana with 4 samples.

Results

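WRKY, NAC and MYB proteins are plant transcription factors, each family named after the DNA-binding domain that its members share. The genes were chosen by the symbol in the array's annotation, which had to be a family name followed by digits only, for nuclear genes with a probe set of their own. The rule found 7 genes among 13217 named nuclear genes: 6 WRKY genes (WRKY6, WRKY20, WRKY22, WRKY42, WRKY47 and WRKY53), 1 NAC gene (NAC014) and 0 MYB genes. RefSeq lists 67 WRKY, 81 NAC and 115 MYB symbols of this form, and the other genes were not analysed here, so the values below describe these 7 genes and not their families. Each gene had 1 probe set, a group of short probes read as one signal.

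RNA came from whole Arabidopsis thaliana seedlings, 7 days old, grown at 21 °C in short days with 8 h of light and 16 h of darkness. The 4 groups were rescued emf2 (emf2 mutant background with 35S::BoEMF2.1), emf2 (emf2 mutant background without transgene), transWT (wild type background with 35S::BoEMF2.1) and WT (wild type of the Columbia ecotype). Both groups with the transgene grew on plates with hygromycin and both groups without it on plates without hygromycin, so transgene and hygromycin cannot be told apart. EMF2 belongs to the Polycomb machinery that keeps floral genes off in young plants. BoEMF2.1 comes from Brassica oleracea and carries its name, and 35S is a viral promoter active in most plant tissues. The labels name neither the emf2 allele nor the number of transgenic lines.

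WRKY proteins bind a short DNA element called the W box, which is common in promoters of defence and senescence genes, and many WRKY genes are themselves switched on by pathogens, wounding or ageing. NAC proteins act in organ boundaries, wood formation, stress and leaf senescence, and some are held at membranes until they are released to the nucleus. Transcripts of many WRKY genes change within a short time of a stress or of handling.

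Each group was measured on 1 array of 22810 probe sets, so a ratio of single arrays below comes with no p-value and no check by a replicate. The small number of arrays limits precision. The floor, a signal of 87.6, was the 40th percentile of all probe sets that are not controls. Between 13394 and 14015 of 22746 such probe sets lay above it on each array. To count as higher or lower, a gene needed a ratio of at least 2-fold and a brighter signal above the floor. For 43 genes with more than 1 probe set, the disagreement of their probe sets gave an SD of 0.273 to 0.378 for a log2 ratio, which holds no variation between plantings. Leaf markers checked the tissue: RCA, PRK and SBPASE, genes of carbon fixation, were above the floor on all arrays, as were the root genes EXPA7, EXPA18 and PYK10. The anther genes A9 and AMS and the seed gene PAP85 were below the floor on all 4 arrays, and none of the 7 floral organ markers was analysed here, nor was EMF2 itself. In whole seedlings, fewer cells of a type and less RNA per cell cannot be told apart.

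Of the 7 genes, 6 were above the floor on all 4 arrays. WRKY22 varied most, by 5.52-fold between its highest and lowest array. WRKY6 varied by 2.09-fold, NAC014 by 1.74-fold, WRKY20 by 1.62-fold, WRKY53 by 1.43-fold and WRKY47 by 1.42-fold. WRKY42, which in Arabidopsis regulates phosphate transport genes, was below the floor throughout, with signals of 2.2 in rescued emf2, 1.8 in emf2, 8.5 in transWT and 2.8 in WT, and no ratio is given for it.

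**Figure D1:**
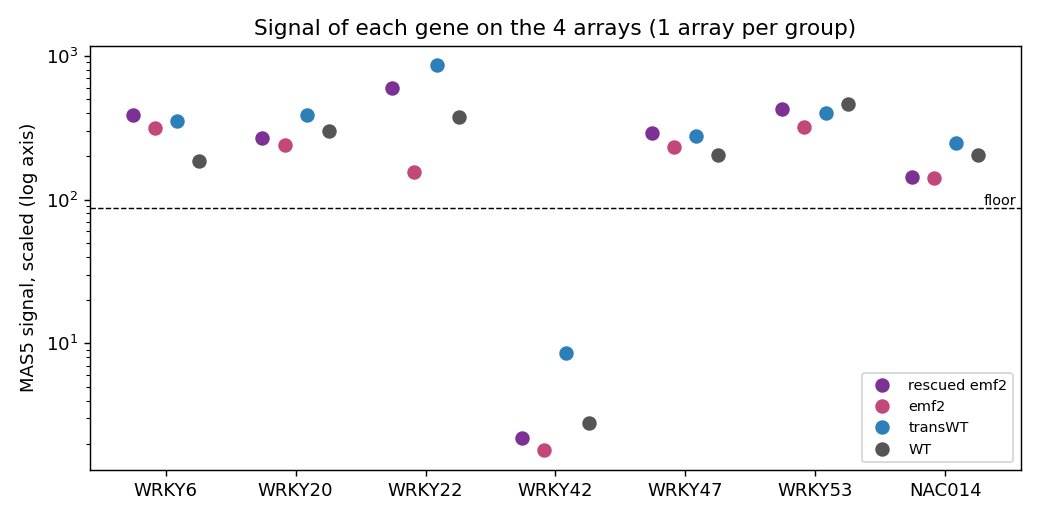
Scaled MAS5 signal (log axis) of the 7 genes on the 4 arrays, 1 point per array, with the dashed floor at 87.6. WRKY22 spans from 156 in emf2 to 859 in transWT, while all 4 points of WRKY42 lie below the floor.

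WRKY22 encodes a transcription factor that acts downstream of a mitogen-activated protein kinase cascade in immune signalling. Its signal was 597 in rescued emf2, 156 in emf2, 859 in transWT and 373 in WT. Both arrays with the transgene were higher than both arrays without it. In each of these 2 sets the array with the emf2 background was the lower one.

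The transgene was read within each background, from pairs that share no array. WRKY22 was 2.31-fold higher in transWT than in WT (log2 ratio 1.21), and its ratio of rescued emf2 over emf2 was 3.84-fold (1.94). The probe set SD of these log2 ratios was 0.329 and 0.327. No other of the 6 measured genes was past 2-fold in either pair, except WRKY6 in transWT over WT under other scalings, given below. Over all probe sets tested, 9.2% were past 2-fold in transWT over WT, 3.88% higher and 5.32% lower. Scaling each array to its median gave shares of 5.6% and 3.64%, and cyclic loess gave 4.68% and 4.25%. The mutant pair had 10.8% past 2-fold, 5.85% higher and 4.97% lower. A ratio at least as high as that of WRKY22 was found for 2.41% of probe sets in the wild type pair and for 1.13% in the mutant pair.

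Being at least 2-fold higher in both pairs was true of WRKY22 and of 1.99% of the 13631 probe sets tested in both. 3.4% of these were past 2-fold the same way in both pairs, in either direction. A limma model with additive terms for background and transgene, which assumes the same effect in both pairs, gave WRKY22 a transgene effect of 1.57 ± 0.26 (log2, SE). Its adjusted p was 0.0893 with limma (Benjamini-Hochberg over 12145 probe sets) and 0.0411 with each array scaled to its median. Under the other settings it lay between 0.0766 and 0.138. The difference between the 2 ratios of WRKY22 was not tested. The fit has 1 residual degree of freedom against 4.349 from a prior over all probe sets fitted. Its SEs therefore draw mostly on that prior, and no group had a replicate array.

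Spike-in controls also differed between arrays. The median of 7 poly-A control probe sets was 1.92-fold in transWT over WT and 2.38-fold in rescued emf2 over emf2, and that of 18 hybridization controls was 1.21-fold and 1.32-fold. Their part in the ratios of WRKY22 was not tested. Of the plant reference genes, 4 of 4 were within 2-fold in both transgene pairs, where 9.2% and 10.8% of all probe sets were past it. Their log2 ratios ran from -0.56 (SAND) to 0.55 (GAPC2) in transWT over WT. In rescued emf2 over emf2 they ran from -0.51 (TIP41) to 0.26 (GAPC2).

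WRKY6, a regulator of senescence, defence and phosphate genes, read 388 in rescued emf2, 312 in emf2, 353 in transWT and 186 in WT. The WT array was the low one, and the other 3 lay close together. WRKY6 was 1.90-fold higher in transWT than in WT (log2 ratio 0.92), within 2-fold, and passed 2-fold there after quantile normalization (1.104), scaling to the median (1.085) and cyclic loess (1.069). Rescued emf2 over emf2 gave 1.24-fold. Its transgene effect in the additive limma fit was 0.62 ± 0.24 (log2, SE), with an adjusted p of 0.239.

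WRKY53, a regulator that promotes leaf senescence, read 426 in rescued emf2, 321 in emf2, 401 in transWT and 459 in WT. Its log2 ratio was -0.19 in transWT over WT and 0.41 in rescued emf2 over emf2, both within 2-fold. WRKY47, of the same WRKY subgroup as WRKY6 and WRKY42, read 289 in rescued emf2, 230 in emf2, 277 in transWT and 203 in WT. Both of its arrays with the transgene were above both without it, by 1.36-fold in transWT over WT and 1.25-fold in rescued emf2 over emf2, within 2-fold.

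WRKY20, which has a pair of WRKY domains, read 269 in rescued emf2, 238 in emf2, 385 in transWT and 298 in WT. Its transgene ratios were 1.29-fold in transWT over WT and 1.13-fold in rescued emf2 over emf2. NAC014, of the NAC genes with a predicted membrane anchor, read 144 in rescued emf2, 142 in emf2, 247 in transWT and 205 in WT. Its transgene ratios were 1.21-fold in transWT over WT and 1.02-fold in rescued emf2 over emf2.

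Over the 6 measured genes, the median log2 ratio was 0.41 in transWT over WT, against -0.07 over all probe sets tested, with 5 of 6 above 0. For rescued emf2 over emf2 it was 0.32, against -0.06 over all probe sets tested, with 6 of 6 above 0. The share of all probe sets above 0 was not counted. In rescued emf2 over emf2 WRKY6 (0.315), WRKY20 (0.173), WRKY47 (0.325) and NAC014 (0.024) were below the probe set SD of 0.327. In transWT over WT NAC014 (0.269) and WRKY53 (-0.194) were smaller in size than the SD of 0.329. Of the 6 genes, 0 passed an adjusted p of 0.05 for the transgene in the additive limma fit, and 2, WRKY22 and WRKY6, had an unadjusted p under 0.05. Over all 12145 probe sets 0.0576% passed the adjusted and 20.7% the unadjusted threshold.

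**Figure D2:**
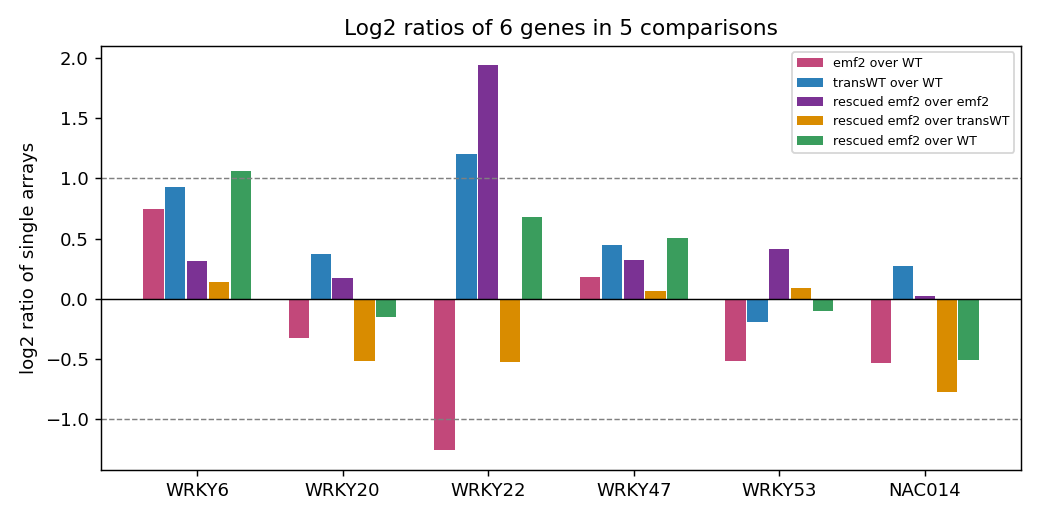
Log2 ratios of single arrays (vertical axis) for the 6 genes above the floor, 1 bar per comparison, with dashed lines at 2-fold. The bars of WRKY22 reach 1.94 in rescued emf2 over emf2 and -1.26 in emf2 over WT, and those of WRKY47 and WRKY53 stay within the dashed lines.

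The emf2 mutation was read in seedlings without the transgene, from emf2 over WT, and in seedlings with it, from rescued emf2 over transWT. WRKY22 was 2.39-fold lower in emf2 than in WT (log2 ratio -1.26). With the transgene its ratio was within 2-fold, 1.44-fold lower in rescued emf2 than in transWT (-0.52). It was the only one of the 6 genes past 2-fold in emf2 over WT. Over all probe sets 18.5% were past 2-fold there, 7.34% higher and 11.1% lower, against 11.0% and 8.01% where arrays were scaled to the median. With the floor at the 60th percentile the emf2 signal of WRKY22 lay below it, and the log2 ratio became a bound of -0.53. The same floor made its log2 ratio of rescued emf2 over emf2 a bound of 1.206, against 1.94. The lower emf2 signal and the 3.84-fold ratio of rescued emf2 over emf2 rest on the same emf2 array.

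In rescued emf2 over transWT, 0 of 6 genes were past 2-fold, against 5.25% of probe sets, 2.26% higher and 2.99% lower (2.98% and 2.29% where arrays were scaled to the median). The 2 background pairs share no array, and 0 of 6 genes were past 2-fold the same way in both, against 3.57% of 13792 probe sets. NAC014 was lower in emf2 than in WT by 1.45-fold, and lower by 1.71-fold when rescued emf2 was set against transWT. Both of its arrays with the emf2 background were below both with the wild type background. WRKY20 was lower in emf2 than in WT by 1.25-fold, and lower by 1.43-fold when rescued emf2 was set against transWT.

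WRKY6 was on the other side, with a log2 ratio of 0.75 in emf2 over WT and 0.14 in rescued emf2 over transWT, both within 2-fold. WRKY47 stayed near equal, at 1.14-fold in emf2 over WT and 1.04-fold in rescued emf2 over transWT. For WRKY53 the log2 ratio was -0.52 in emf2 over WT and 0.09 in rescued emf2 over transWT.

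In the additive limma fit the background effect was -0.89 ± 0.26 (log2, SE) for WRKY22, with an adjusted p of 0.134, and -0.65 ± 0.21 for NAC014, with an adjusted p of 0.153. By this fit 0 of 6 genes passed an adjusted p of 0.05 and 2, WRKY22 and NAC014, had an unadjusted p under 0.05. Over all probe sets 0.0% passed the adjusted and 25.1% the unadjusted threshold. The median log2 ratio of the 6 genes was -0.42 in emf2 over WT, against -0.05 over all probe sets tested, and -0.23 in rescued emf2 over transWT, against -0.03. Where arrays were scaled to the median, these were -0.21 against 0.15 and -0.13 against 0.06.

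Markers of plant organs also differed in both pairs that hold the emf2 array. Of the leaf list 3 of 6 genes were named, and their summed signal was 40051.6 in rescued emf2, 19359.6 in emf2, 47685.7 in transWT and 35993.2 in WT. SBPASE was 3.13-fold and PRK 2.61-fold lower in emf2 than in WT, and RCA was lower by 1.31-fold, within 2-fold. Between rescued emf2 and emf2, SBPASE was 2.96-fold, RCA 2.0-fold and PRK 1.725-fold higher in rescued emf2. Of the root list 3 of 4 genes were named, with sums of 18753.7 in rescued emf2, 18206.2 in emf2, 18281.5 in transWT and 15775.1 in WT, most of it PYK10. EXPA18 was 4.19-fold and EXPA7 2.67-fold higher in emf2 than in WT, both expansins of root hairs. In rescued emf2 they were 2.96-fold and 2.09-fold lower than in emf2. The part of organ proportions in these 2 ratios of WRKY22 was not tested.

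**Figure D3:**
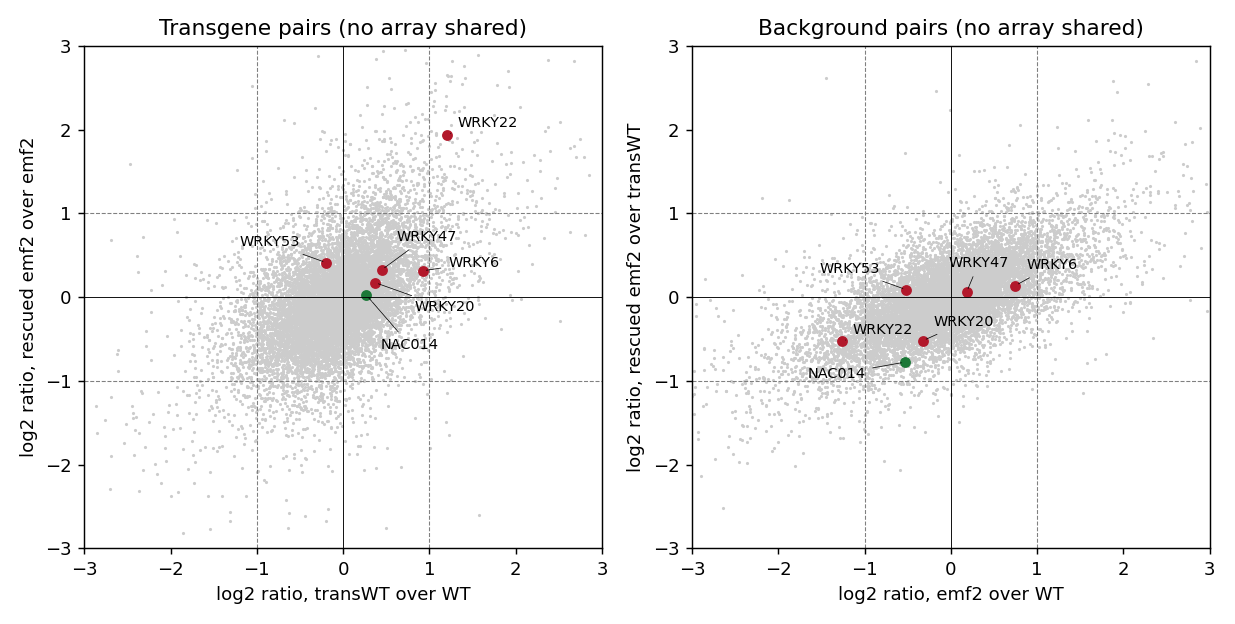
Log2 ratios of 12145 probe sets with 4 signals above the floor (grey), with WRKY genes in red and NAC014 in green. The left panel sets transWT over WT (horizontal) against rescued emf2 over emf2 (vertical) and the right panel emf2 over WT against rescued emf2 over transWT. The axes stop at 3 either way, which leaves out 44 probe sets on the left and 48 on the right. Dashed lines mark 2-fold, and WRKY22 is the only coloured point past both on the left, at 1.21 and 1.94.

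How far the rescued mutant stood from the wild type was read from rescued emf2 over WT. WRKY6 had a signal 2.09-fold above WT in rescued emf2 (log2 ratio 1.06), and the other 5 measured genes lay within 2-fold. Past 2-fold were 15.8% of probe sets, 5.91% higher and 9.9% lower. Scaling each array to its median gave 9.77% and 5.72%, quantile normalization 7.33% and 7.53%, and cyclic loess 7.22% each. The median of the poly-A controls was 2.48-fold in this comparison and that of the hybridization controls 1.35-fold. Their part in the WRKY6 ratio was not tested. With the floor at the 60th percentile the WRKY6 ratio is a bound of at least 0.58 (log2), which leaves its side of 2-fold unknown.

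In the same comparison WRKY22 was at 1.60-fold and WRKY47 at 1.42-fold. NAC014 was lower by 1.42-fold. WRKY20 and WRKY53 had no settled direction: their log2 ratios were -0.15 and -0.11, but 0.049 and 0.006 after quantile normalization, 0.11 and 0.15 with scaling to the median, and 0.053 and 0.045 after cyclic loess. Over the 6 genes the median log2 ratio was 0.20, against -0.10 over all probe sets tested, and 0.46 against 0.14 where arrays were scaled to the median.

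Genes that these families are known to act with were read from 5 lists with 87 genes in all, of which 12 were named by the annotation. None of the 19 genes of the salicylic acid and defence list was among them. Of the leaf senescence list 3 of 11 genes were named. PPDK, an enzyme of nitrogen remobilization, read 2572 in rescued emf2, 552 in emf2, 1306 in transWT and 158 in WT. It was 8.27-fold higher in transWT than in WT, and its ratio of rescued emf2 over emf2 was 4.66-fold. SWEET15, a sugar exporter also named SAG29, read 386 in rescued emf2, 171 in emf2, 257 in transWT and 49.4 in WT. It was at least 2.93-fold higher in transWT than in WT, and its ratio of rescued emf2 over emf2 was 2.27-fold.

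SAG101, a lipase-like gene of senescence and immunity, read 117 in rescued emf2, 92.9 in emf2, 116 in transWT and 152 in WT, within 2-fold in all 5 comparisons. Of the 3 named senescence genes, 2 were at least 2-fold higher in each transgene pair. Over all probe sets tested, 3.88% were so in transWT over WT and 5.85% in rescued emf2 over emf2. In emf2 over WT PPDK was 3.49-fold higher, and SWEET15 had a bound of at least 1.95-fold, which leaves its side of 2-fold unknown. In rescued emf2 over WT 2 of 3 were past 2-fold, against 15.8% of all probe sets tested. PPDK was at 16.3-fold and SWEET15 at least 4.41-fold. Between rescued emf2 and transWT 0 of 3 were past 2-fold, against 5.25% of all probe sets tested, with PPDK at 1.97-fold.

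Of the glucosinolate list, a pathway under MYB control, 3 of 18 genes were named. BCAT4, which starts methionine chain elongation, read 550 in rescued emf2, 3274 in emf2, 921 in transWT and 1420 in WT. It was 2.31-fold higher in emf2 than in WT. The rescued emf2 array was 5.96-fold below emf2 and 2.58-fold below WT. UGT74B1 and UGT74C1, glucosyltransferases of the same pathway, lay within 2-fold in all 5 comparisons, UGT74C1 at 1.99-fold lower in rescued emf2 than in WT.

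Of the flavonoid and anthocyanin list, also under MYB control, 5 of 21 genes were named and 3 were above the floor in transWT. DFR, an enzyme of anthocyanin synthesis, read 92.7 in rescued emf2, 23.9 in emf2, 310 in transWT and 85.6 in WT. It was at least 3.54-fold higher in transWT than in WT, and rescued emf2 was 3.35-fold below transWT. It was the 1 gene of 3 measured with a ratio or bound past 2-fold in each of these comparisons, against 9.2% and 5.25% of all probe sets tested. No gene of the list was above the floor in emf2 or WT. UF3GT and UGT75C1, which add sugars to anthocyanins, were above the floor in transWT alone, with signals there of 140 and 115. Against both WT and rescued emf2, transWT was higher by at least 1.60-fold for UF3GT and at least 1.31-fold for UGT75C1. These bounds leave their side of 2-fold unknown. Of the secondary wall list, a programme under NAC and MYB control, 1 of 18 genes was named. IRX10, a xylan synthesis gene, read 233 in rescued emf2, 167 in emf2, 203 in transWT and 146 in WT, within 2-fold in all 5 comparisons.

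**Figure D4:**
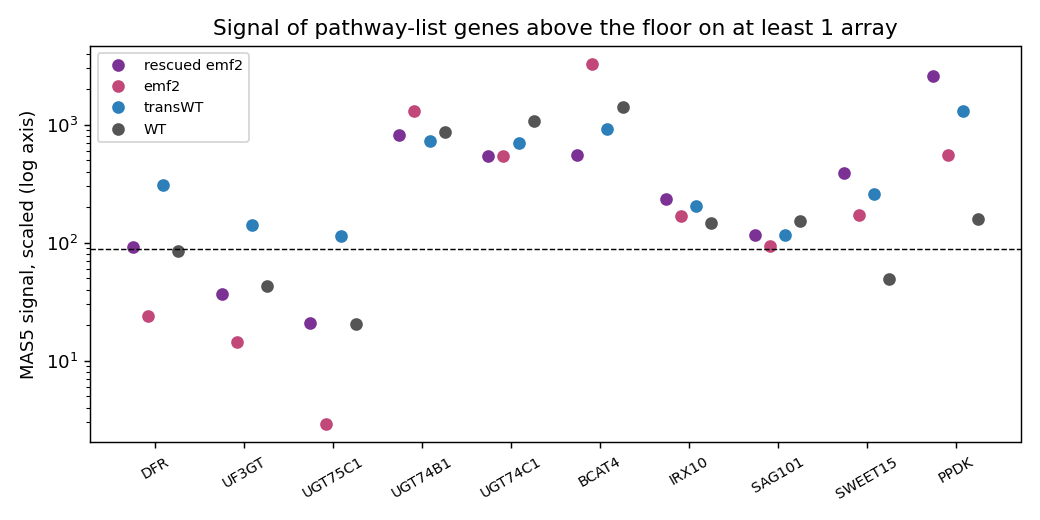
Scaled MAS5 signal (log axis) of the 10 list genes above the floor on at least 1 array, 1 point per array, with the dashed floor at 87.6. PPDK ranges from 158 in WT to 2572 in rescued emf2, and BCAT4 from 550 in rescued emf2 to 3274 in emf2.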

How the data were processed

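Whole-seedling RNA, 10 µg per sample, was labelled with biotin and read on 1 Affymetrix array per group, as the labels' protocols state. The deposited values are intensity, 1 linear signal per probe set, computed by the authors using MAS5 according to the submitters' processing notes. The MAS5 version is not given in the sources used. All 4 deposited arrays had the same mean after trimming 2% of probe sets at each end, to within rounding. MAS5 signals of dim probe sets are noisy.

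Arrays were rescaled to that mean, floored at the 40th percentile of the probe sets other than 64 controls, and compared as log2 ratios of single arrays. Where the dimmer signal was under the floor, the ratio is a bound. The additive fit used limma 3.58.1 (lmFit, eBayes) in R 4.3.3 on probe sets that exceeded the floor on every array. It has 1 residual degree of freedom. Names came from the platform annotation and RefSeq (TAIR10.1).

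Other scalings, floors, thresholds and variance priors were tried. Named were all 7 genes and, per list and comparison, up to 4 genes past 2-fold or up to 2 with values; other list genes were added after their values were seen. The genes, lists and tests were chosen with earlier results of these data known.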

Additional observations from a re-analysis of the deposited data

Results flagged for a closer look

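WRKY53 had ratios of opposite direction in pairs that share no array. Its log2 ratio for the transgene was -0.19 in transWT over WT and 0.41 in rescued emf2 over emf2, and for the background -0.52 in emf2 over WT and 0.088 in rescued emf2 over transWT. Both contrasts hold the same 4 signals, so they are 1 observation. All 4 ratios were within 2-fold, and the difference was not tested. The ratios of -0.19 and 0.088 are smaller than the probe set SDs of 0.329 and 0.352 in these comparisons, and the first was -0.032 with each array scaled to its median.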

How the results depend on the processing

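Of 264 ratios of single genes under alternative settings, 259 kept their side of 2-fold and 0 changed direction among those past it. These counts include settings that could not move the 6 genes, which makes the values look steadier. Such settings were a lower floor, both arrays above the floor, and the mean over a gene's probe sets. The deposited values also repeated the main ones, as they already had the same trimmed mean. Within 2-fold, WRKY20 and WRKY53 changed direction in rescued emf2 over WT under 3 scalings. In transWT over WT the count of genes past 2-fold was 1, against 2 after scaling to the median, quantile normalization, cyclic loess, a threshold of 1.5-fold and with no floor and a pseudocount of 1, where WRKY42 is counted, and 0 at 3-fold. In emf2 over WT it was 1, against 0 with the floor at the 60th percentile, where WRKY22 has only a bound, 2 at 1.5-fold and 0 at 3-fold. In rescued emf2 over WT it was 1, against 0 with the floor at the 60th percentile, where WRKY6 has only a bound, 2 at 1.5-fold and 0 at 3-fold. In rescued emf2 over transWT it was 0, against 1 with no floor (WRKY42) and 1 at 1.5-fold (NAC014). The count past 2-fold in both transgene pairs was 1, and 0 at 3-fold. For the transgene in the additive limma fit, 1 gene (WRKY22) passed with each array scaled to its median, against 0 otherwise. With the floor at the 60th percentile only WRKY53 of the 6 genes was fitted. Scaling to the median moved the median log2 ratio of all probe sets to 0.15 in emf2 over WT, against -0.05, to 0.08 in transWT over WT, against -0.07, and to 0.14 in rescued emf2 over WT, against -0.10. No paired analysis was possible because each group has 1 array and no replicate numbers to pair; the additive fit pairs arrays by background and transgene only. Precision is limited by signal over background for WRKY42.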

Other observations

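Genes of these families outside the naming rule were picked with their values known. ZAP1, which RefSeq also names WRKY1, read 239 in rescued emf2, 385 in emf2, 337 in transWT and 472 in WT. Unlike WRKY22, it was lower with the transgene in each background, by 1.40-fold in transWT over WT and 1.61-fold in rescued emf2 over emf2, and it was 1.98-fold lower in rescued emf2 than in WT. AT5G47390, which RefSeq also names MYBH and KUA1, a MYB-related gene of cell expansion, read 1249 in rescued emf2, 818 in emf2, 1948 in transWT and 1539 in WT. It was lower in the emf2 background in both pairs, by 1.88-fold in emf2 over WT and 1.56-fold in rescued emf2 over transWT. MYBC1, a MYB-like gene, read 526 in rescued emf2, 593 in emf2, 445 in transWT and 562 in WT. All 3 genes lay within 2-fold in the 5 comparisons.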
